A study of Mus musculus with 6 samples.

Results

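The core autophagy machinery is described here as a list of 43 named genes in retinas of Dram2 wild-type and knockout mice. Dram2 is the gene of a lysosomal membrane protein linked to autophagy and to an inherited retinal dystrophy. The genes were taken by name, and all 43 were found among the 52636 genes of the count table, each with at least 1 UMI. A UMI (unique molecular identifier) tags 1 captured RNA molecule, and PCR copies of it add nothing to the count. The list has 5 genes of the initiation complex, 7 of the class III PI3-kinase complexes and their regulators, 8 that supply membrane or bind phosphoinositides, 11 of the conjugation systems, 5 ATG8 genes and 7 cargo receptors.

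Retinas of male C57BL/6J mice aged 12 months were dissociated with papain and profiled with the 10x Genomics 3′ kit. Dram2 ko/ko mice were constitutive CRISPR/Cas9 knockouts lacking exon 4 of Dram2, and wt/wt mice were the controls. The authors describe the allele as functionally null, checked the deletion in genomic DNA and had no suitable antibody for the protein. No treatment is named for either. The sample labels give 3 retinas of each genotype, and each retina served as 1 replicate. Replicate 3 of each genotype is labelled batch 1, and replicates 1 and 2 batch 2. Another text among the labels speaks of 1 sample per genotype, and nothing says from how many animals the retinas came, so the p-values measure the spread between these retinas, which may be technical.

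Macroautophagy encloses cytoplasm in a growing double membrane, the phagophore, and delivers it to the lysosome. The ULK1 complex starts the process, the class III PI3-kinase marks the membrane with a phosphoinositide, ATG9 and ATG2 bring lipid, and the conjugation systems couple ATG8 proteins to a membrane lipid. Cargo receptors bind ATG8 proteins on one side and ubiquitylated or mitochondrial cargo on the other. Photoreceptors renew their outer segments throughout life, and RPE cells digest the shed tips by a route that also uses LC3.

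The 46375 cells gave between 3463728 and 6563762 UMIs per retina, and 45746 of them carry 1 of 5 deposited cell types. Because the types were themselves clustered from these counts, a p-value between types is not independent evidence of a difference and is read against the share of all genes. Photoreceptors contributed 5961 to 8318 cells per retina, interneurons 160 to 610, glia 87 to 269, mesenchymal cells 31 to 50 and RPE cells 10 to 25. The summed level of 9 rod markers was 48300 to 74500 UMIs per 1000000 UMIs of the same sum (CPM) in photoreceptors and 4348 to 10860 CPM in the other types. Interneurons carried bipolar markers (3882 to 7870 CPM over 7 genes) and amacrine markers (93.6 to 1658 CPM over 6 genes). Their sums also held 1601 to 3088 CPM over 8 cone markers, against 4683 to 8270 CPM in photoreceptors and 289 to 900 CPM in glia. The part of cone RNA in interneuron levels was not tested. Glia carried Müller cell markers (22140 to 28650 CPM over 6 genes, but also 915 to 1247 CPM over 6 amacrine markers), and RPE cells RPE markers (91080 to 122600 CPM over 9 genes, with Best1 at 0). The cells deposited as mesenchymal carried markers of microglia (5213 to 25800 CPM), endothelium (4676 to 11760 CPM) and pericytes (1515 to 4753 CPM). Of 5 fibroblast markers, 3 (Col1a1, Lum and Pdgfra) were at 0. The class is thus mixed, and its label is kept as deposited. The counts of wt/wt replicates 1 and 2 and ko/ko replicate 2 lay close together (chi-square per degree of freedom 1.67 to 3.86), and the 2 batch 1 retinas were nearest to each other (5.76) and 21.2 to 33.2 from those 3. The fourth batch 2 retina, ko/ko replicate 1, lay 11.8 to 18.1 from all others. Dram2 itself had 84, 100 and 207 UMIs in wt/wt photoreceptors and 76, 119 and 240 in ko/ko, but the counted 3′ end lies outside the deleted exon and checks nothing.

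The promoters of 4 members are shown because these genes differed sharply between photoreceptors and other types, as given later. Each run is 300 bases of RefSeq sequence on the gene's strand, from 250 bases before the transcription start to 50 after it, in build GRCm38.p6. Capitals mark matches to 3 motifs searched on both strands: TCACGTG, the E-box core of the CLEAR element bound by TFEB, TAATCC, a site type bound by the photoreceptor factors CRX and OTX2, and TATAAA, the letters of a TATA box wherever they lie. No run holds more than 1 match, and that of Tax1bp1 holds none.
Optn, chr2:5064068-5064367, minus strand: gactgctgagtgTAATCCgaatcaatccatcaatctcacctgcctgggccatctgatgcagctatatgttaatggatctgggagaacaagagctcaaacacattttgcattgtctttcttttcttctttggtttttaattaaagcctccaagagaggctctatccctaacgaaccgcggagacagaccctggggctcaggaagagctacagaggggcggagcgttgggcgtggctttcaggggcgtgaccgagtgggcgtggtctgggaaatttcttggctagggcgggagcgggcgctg
Atg4c, chr4:99193684-99193983, plus strand: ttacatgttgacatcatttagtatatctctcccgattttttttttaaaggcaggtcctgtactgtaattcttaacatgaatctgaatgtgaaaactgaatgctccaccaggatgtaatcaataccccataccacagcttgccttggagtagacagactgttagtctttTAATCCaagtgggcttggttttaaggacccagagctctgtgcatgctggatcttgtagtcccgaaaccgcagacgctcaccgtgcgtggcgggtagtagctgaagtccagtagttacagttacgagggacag
Tax1bp1, chr6:52713479-52713778, plus strand: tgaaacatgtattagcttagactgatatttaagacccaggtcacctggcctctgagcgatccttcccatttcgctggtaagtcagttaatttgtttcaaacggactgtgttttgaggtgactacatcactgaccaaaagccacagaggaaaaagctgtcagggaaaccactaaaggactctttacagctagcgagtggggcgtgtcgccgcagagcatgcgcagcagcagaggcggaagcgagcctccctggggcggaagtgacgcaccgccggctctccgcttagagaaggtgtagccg
Sqstm1, chr11:50210771-50211070, minus strand: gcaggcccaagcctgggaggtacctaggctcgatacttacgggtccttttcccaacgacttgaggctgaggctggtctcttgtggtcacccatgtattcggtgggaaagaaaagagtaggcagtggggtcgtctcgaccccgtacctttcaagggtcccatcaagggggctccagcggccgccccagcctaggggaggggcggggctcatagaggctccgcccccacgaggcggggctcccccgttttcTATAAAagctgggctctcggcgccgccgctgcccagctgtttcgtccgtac
TAATCC lay 238 bases before the start of Optn and 82 bases before that of Atg4c, and TATAAA began 1 base before the start of Sqstm1. In the GENCODE annotation the start of Optn (5064051) lies outside the window shown, and that of Sqstm1 (50210827) differs from the start used. Their distances depend on that choice. With the GENCODE start the TATAAA match of Sqstm1 lies inside the transcript, so its letters are not placed as a TATA box of that start. Atg4c and Tax1bp1 have 2 starts listed each, of which 1 is shown. Promoters were listed for 35 of the 43 members, 42 in all. TAATCC was in 11.9% of those 42, those of Ambra1, Atg4c, Atg7, Optn and Rubcn, against 7.06% of 32851 promoters of all genes. TCACGTG was in 9.52% (Atg3, Atg7, Atg14 and Rubcn) against 3.77%, and TATAAA in 4.76% (Atg4a and Sqstm1) against 13.6%. A match describes letters in a window and is not a bound site.

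The first question was how the machinery is laid out across the cell types. Summed over the 43 genes, the level was 0.281% ± 0.0201 (SD, n = 6) of UMIs in photoreceptors, against 0.326% ± 0.0186 in interneurons and 0.304% ± 0.0335 in glia. Mesenchymal cells had 0.295% ± 0.0403 and RPE cells 0.296% ± 0.0497. The ranges of photoreceptors (0.259% to 0.301%) and interneurons (0.306% to 0.348%) did not overlap. Without mitochondrial UMIs and those of Malat1, a nuclear RNA, they did (0.294% to 0.365% against 0.336% to 0.389%), so this gap depends on the total used. The make-up of the sum also varied. ATG8 genes gave 23.4% in photoreceptors (18.0% to 29.4%) of the members' UMIs, as the mean and range of 6 retinas. The share was 54.4% in RPE cells (39.4% to 73.3%), 38.6% in mesenchymal cells (34.9% to 42.2%), 37.0% in interneurons (31.3% to 40.5%) and 27.9% in glia (22.0% to 33.2%). The receptors gave 38.4% in photoreceptors (31.6% to 44.7%), 30.2% in interneurons (28.0% to 32.6%) and 32.4% in glia (26.5% to 37.4%). Photoreceptor ranges do not overlap those of interneurons for ATG8 genes, and overlap slightly for receptors. Tax1bp1 alone made 60.5% of the UMIs of the 5 receptors other than Bnip3 and Bnip3l in photoreceptors. It made 40.1% in interneurons and 44.6% in glia. Receptor and ATG8 shares without Tax1bp1 were not formed, so the differences in these shares may rest on that gene. Each molecule is counted once by its 3′ tag whatever the gene's length, and 2 genes were compared only as shares of a family in the same sum.

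**Figure D1:**
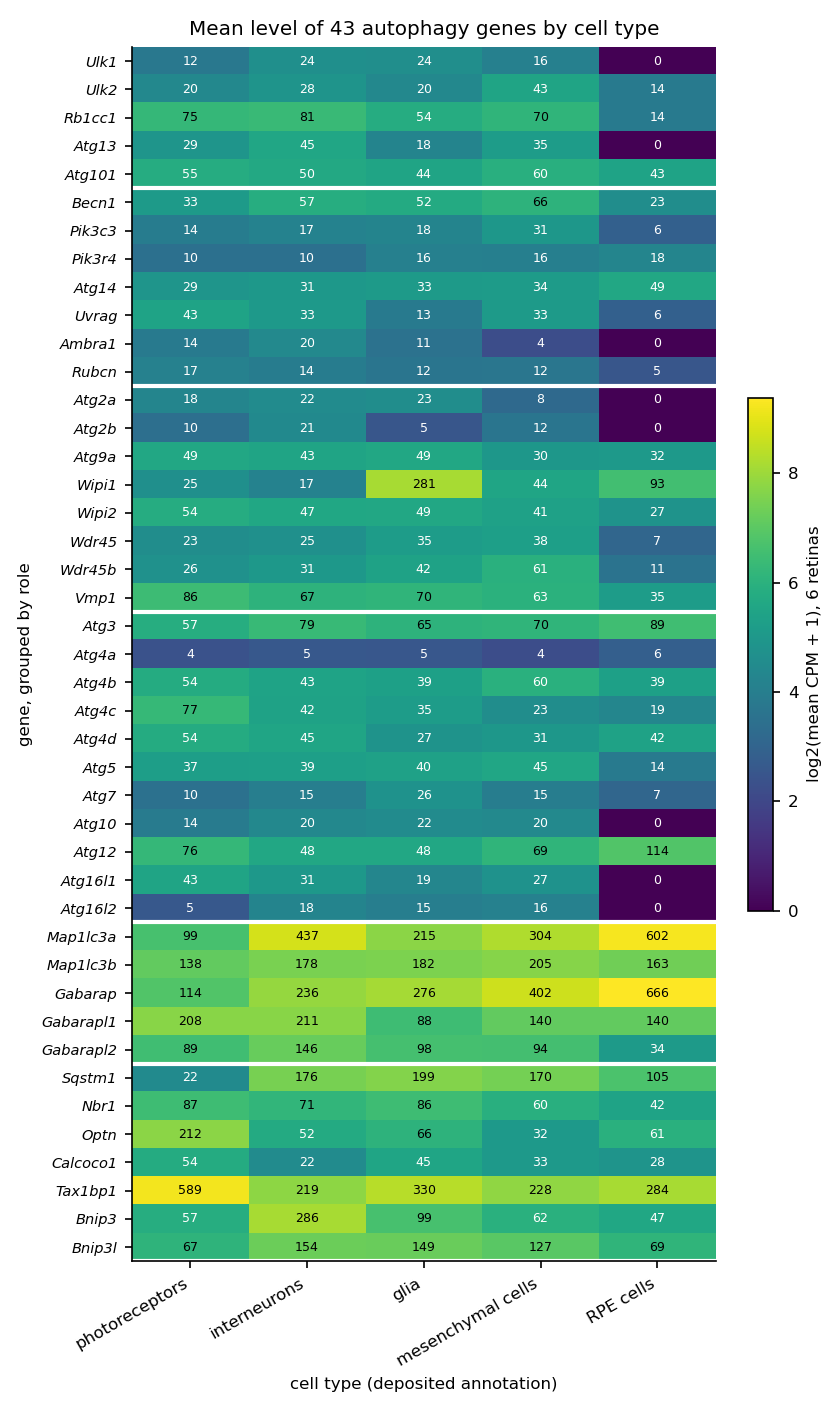
Mean level of each of the 43 genes (rows, grouped by role from initiation at the top to receptors at the bottom) in the 5 cell types (columns), printed as CPM and coloured by log2(mean CPM + 1) over 6 retinas. Wipi1 in glia (281 CPM), Optn and Tax1bp1 in photoreceptors (212 and 589 CPM) and Bnip3 in interneurons (286 CPM) stand out in their rows, Sqstm1 is at 21.7 CPM in photoreceptors, and 8 genes are at 0 in RPE cells.

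In the test of any difference among the 5 types (edgeR, retina as a block), 25 of the 43 members passed the filter on low counts and 21 of these had an adjusted p under 0.05, where 94.3% of the 6290 genes tested did. This was 2 of 2 tested initiation genes, 1 of 2 PI3-kinase genes, 4 of 5 genes of membrane supply, 3 of 4 conjugation genes, 4 of 5 ATG8 genes and 7 of 7 receptors. Atg14, Atg3, Atg9a and Map1lc3b did not pass. The number that passed moved with the number the filter let through, down to 14 of 17 without wt/wt replicate 1. The type with the highest mean stood above the next for 9 of 25 members, against 53.6% of all genes. For Optn, Tax1bp1, Atg4c, Bnip3 and Wipi1 this call held under each of the 16 or 17 alternative settings run for that gene, and for Gabarap, Gabarapl2, Sqstm1 and Vmp1 it was lost under some.

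Among the receptors, Optn and Tax1bp1 were highest in photoreceptors and Sqstm1 lowest there. Optn encodes optineurin, a ubiquitin-binding receptor for damaged mitochondria and protein aggregates. In photoreceptors its level was 251, 259 and 175 CPM in wt/wt retinas 1 to 3 and 164, 253 and 171 CPM in ko/ko retinas 1 to 3. In glia it was 95.5, 107 and 55.2 CPM in wt/wt and 20.1, 61.9 and 53.3 CPM in ko/ko. All 6 photoreceptor values lie above all 6 glial ones, and the log2 difference was 1.83 (SE 0.15, adjusted p = 1.6e-18). RPE cells (61.2 ± 36.3 CPM), interneurons (51.7 ± 14.0) and mesenchymal cells (31.9 ± 16.3, SD, n = 6) followed glia, and no neighbours among these 4 differed beyond their spread (adjusted p 0.33 to 0.96). Across more than 1 step, the log2 difference of glia from mesenchymal cells was 0.99 (SE 0.34, adjusted p = 0.011), with higher CPM in 6 of 6 retinas. That of interneurons from glia was -0.47 (SE 0.19, adjusted p = 0.028), a call lost with library sizes alone (adjusted p = 0.14). The rod marker list in interneurons and glia was 11.3% to 14.3% and 9.65% to 16.8% of its photoreceptor level in the same retina, and Optn 19.9% to 28.3% and 12.3% to 41.3% of its own. In mesenchymal cells the list was at 9.80% to 14.6% and Optn at 7.50% to 25.3%. In RPE cells the list was at 7.9% to 18.4% and Optn at 14.5% to 52.7%. The part of rod RNA in the levels of other types was not tested.

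Tax1bp1 encodes a ubiquitin-binding receptor related to NDP52. It stood at 734, 761 and 374 CPM in wt/wt photoreceptors and 472, 736 and 459 CPM in ko/ko. Glia had 405, 422 and 203 CPM in wt/wt and 248, 440.3 and 261 CPM in ko/ko. The ranges overlap across retinas, but photoreceptors were the higher within each of the 6, and the log2 difference was 0.99 (SE 0.12, adjusted p = 9.7e-11). Interneurons were at 219 ± 55.0 CPM, mesenchymal cells at 228 ± 78.8 and RPE cells at 284 ± 201 (SD, n = 6), with no step between neighbours beyond the spread. Across more than 1 step, glia differed from mesenchymal cells by a log2 value of 0.52 (SE 0.18, adjusted p = 0.012), with higher CPM in 5 of 6 retinas. Interneurons differed from glia by -0.69 (SE 0.14, adjusted p = 8.1e-06), with lower CPM in all 6.

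Sqstm1 encodes p62, which binds ubiquitin and LC3 and is itself degraded by autophagy. Photoreceptors had 21.1, 20.04 and 25.7 CPM in wt/wt and 21.4, 20.6 and 21.4 CPM in ko/ko. Interneurons had 168, 195 and 176 CPM in wt/wt and 167, 164 and 188 CPM in ko/ko. Glia were close to these, at 202, 181 and 212 CPM in wt/wt and 194, 213 and 190.3 CPM in ko/ko. Photoreceptor values, which do not overlap either, were 10.3% to 14.6% of those of interneurons in the same retina and 9.67% to 12.1% of those of glia. The log2 difference of photoreceptors from interneurons was -2.74 (SE 0.12, adjusted p = 4.5e-33) and from glia -3.03 (SE 0.14, adjusted p = 1.6e-31). Glia lay above interneurons by 0.30 (SE 0.13, adjusted p = 0.046), a call lost in 10 of 17 alternatives, with adjusted p up to 0.63. Interneurons and mesenchymal cells (169.9 ± 35.2 CPM) did not differ beyond their spread (adjusted p = 0.8), and RPE cells had 1 to 5 UMIs per retina.

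A share within a sum needs no scaling between libraries, and on that measure too the pair turned over between types. Of the UMIs on Optn and Sqstm1 together, Optn took 87.2% to 92.8% in photoreceptors over the 6 retinas. Interneurons gave 16.3% to 29.7%, glia 9.38% to 37.2% and mesenchymal cells 5.88% to 26.7%. The photoreceptor range does not overlap any of these. RPE cells spanned 20% to 66.7% on 2 to 8 UMIs a retina.

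The other receptors were flatter or highest elsewhere. Nbr1, a ubiquitin-binding partner of p62, was at 111, 102 and 76.8 CPM in wt/wt photoreceptors and 66.0, 98.4 and 68.7 CPM in ko/ko. The mean was 87.2 ± 19.0 CPM in photoreceptors and 86.5 ± 7.07 CPM in glia (SD, n = 6), which did not differ beyond their spread (adjusted p = 0.49). Calcoco1, a receptor for the endoplasmic reticulum, was at 66.7, 54.4 and 42.8 CPM in wt/wt photoreceptors and 67.1, 52.9 and 40.2 CPM in ko/ko. On average it was at 54 ± 11.4 CPM in photoreceptors, 44.9 ± 11.6 in glia and 22.1 ± 8.02 in interneurons. Its log2 difference of photoreceptors from interneurons was 1.36 (SE 0.18, adjusted p = 3.9e-10), with photoreceptors higher in 6 of 6 retinas.

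Bnip3 and Bnip3l encode mitochondrial receptors, of which BNIP3 is induced by hypoxia. Bnip3 was at 273, 298 and 325 CPM in wt/wt interneurons and 256, 233 and 332 CPM in ko/ko, against 68.8 to 139.6 CPM in glia. Interneurons were highest in all 6 retinas, with a log2 difference from glia of 1.34 (SE 0.15, adjusted p = 7.3e-13). Bnip3l was at 154, 149 and 163 CPM in wt/wt interneurons and 191, 129.5 and 134 CPM in ko/ko. Its means were 154 ± 22.3 CPM in interneurons and 149 ± 34.8 in glia, without a difference beyond the spread (adjusted p = 0.38). Photoreceptors, at 67.3 ± 10.2 CPM, were below interneurons, with a log2 difference of -0.88 (SE 0.11, adjusted p = 1.2e-10). Bnip3 took 57.3% to 71.2% of the pair's UMIs in interneurons and 33.3% to 50% in glia, without overlap.

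**Figure D2:**
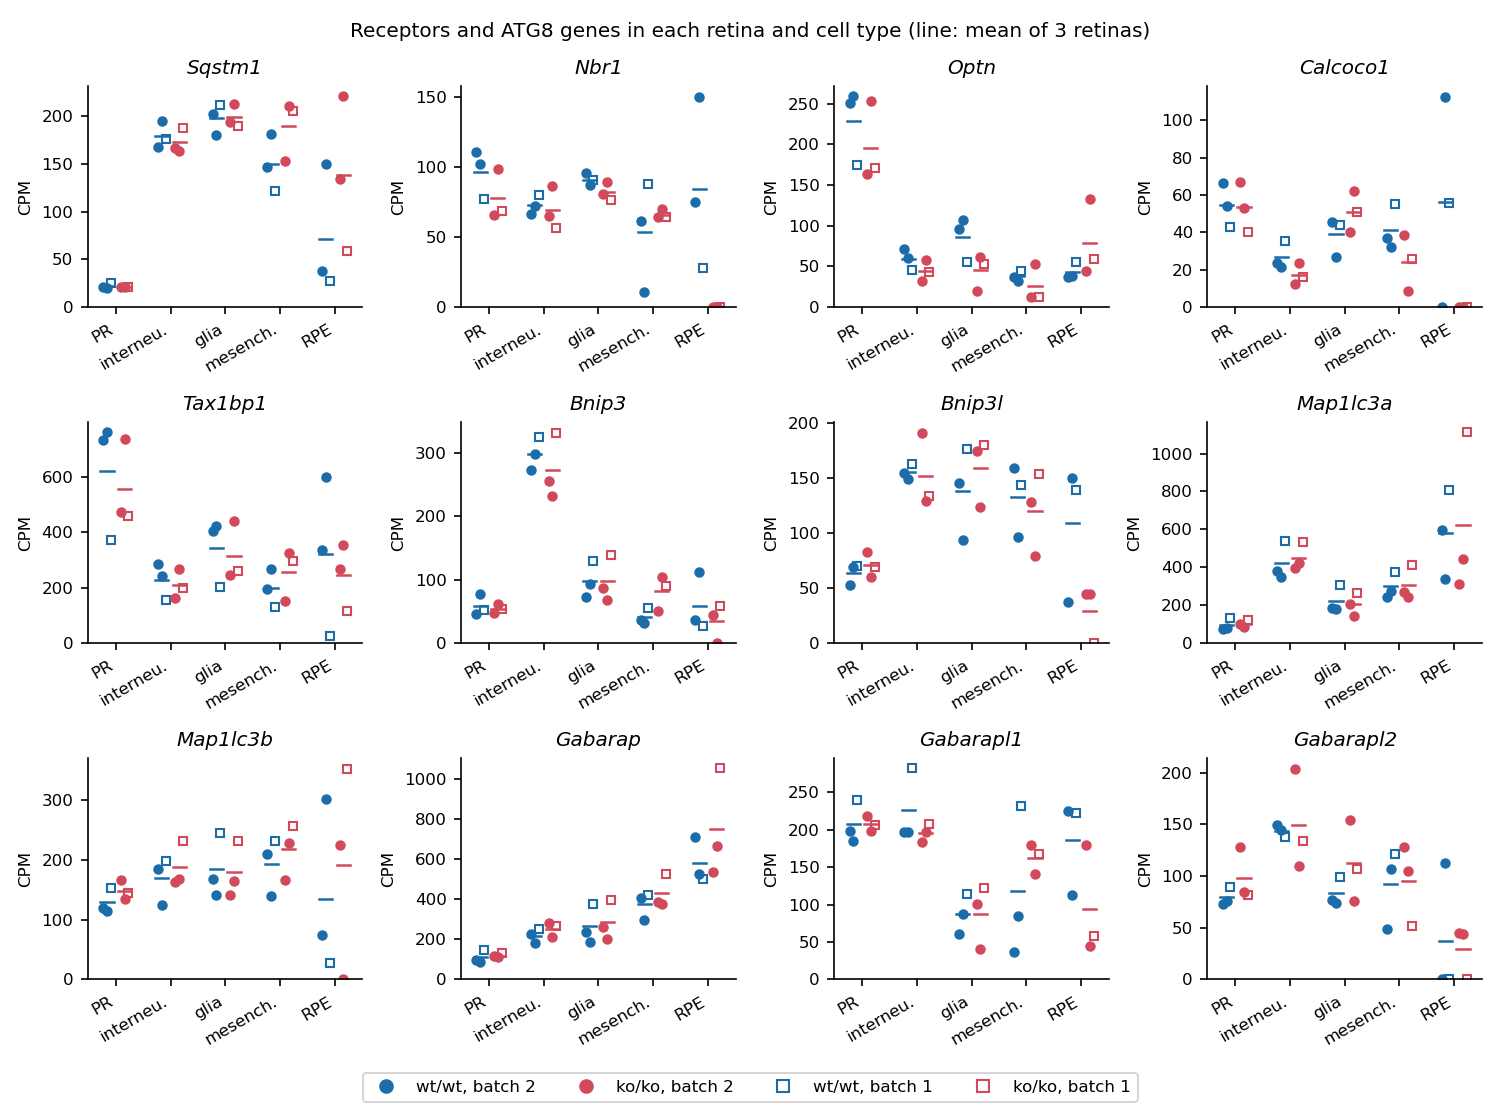
Level (CPM, linear axis from 0) of the 7 receptors and 5 ATG8 genes in each retina, by cell type (PR, photoreceptors), with wt/wt in blue, ko/ko in red, open squares for batch 1 and a line at the mean of 3 retinas. Sqstm1 photoreceptor points lie between 20.04 and 25.7 CPM, below every interneuron and glial point, Optn photoreceptor points lie between 164 and 259 CPM, and wt/wt and ko/ko points intermingle in most panels.

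In the ATG8 family photoreceptors were lowest for Map1lc3a and Gabarap, and both had their highest mean in RPE cells. Map1lc3a encodes LC3A. Its photoreceptor values were 72.5, 79.3 and 133 CPM in wt/wt and 99.9, 84.1 and 123 CPM in ko/ko. Interneuron values were 379.5, 351 and 539.5 CPM in wt/wt and 399, 421 and 531 CPM in ko/ko. In both types the 2 batch 1 retinas were the highest, and photoreceptors had 19.1% to 25.1% of the interneuron level in the same retina, a log2 difference of -1.87 (SE 0.10, adjusted p = 3.8e-28). RPE cells, at 602 ± 310.1 CPM, and interneurons, at 437 ± 79.7, did not differ beyond their spread (log2 0.33, adjusted p = 0.11). Interneurons lay above mesenchymal cells, these above glia and glia above photoreceptors (adjusted p 0.022, 0.018 and 2.2e-09). The first of these steps was lost with RLE factors (adjusted p = 0.062).

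Gabarap, the founding gene of the GABARAP branch, formed a similar ladder. Photoreceptors had 97.5, 85.6 and 146 CPM in wt/wt and 116, 109.5 and 131 CPM in ko/ko, below all 6 values of interneurons (180.3 to 281 CPM) and glia (187 to 398 CPM). On average the gene was at 666 ± 208 CPM in RPE cells, 402 ± 74.0 in mesenchymal cells, 276 ± 89.7 in glia, 236 ± 37.8 in interneurons and 114 ± 22.0 in photoreceptors (SD, n = 6). Each step had an adjusted p under 0.05 (0.037, 0.0028, 0.0077 and 1.8e-08 from the top). The ranges of glia and interneurons overlap, and their step was lost with library sizes alone (adjusted p = 0.056). The top step rests on 12 to 19 RPE UMIs per retina and was lost in 12 of 16 alternatives, with adjusted p up to 0.78. Over all genes the median fitted log2 difference of mesenchymal cells from RPE cells was 0.83, the other direction.

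Gabarapl1 took the largest part of the ATG8 UMIs in photoreceptors. It was at 198, 185 and 240.3 CPM in wt/wt photoreceptors and 218, 198 and 207 CPM in ko/ko, against 61.1, 87.0 and 115 CPM in wt/wt glia and 100.5, 41.3 and 122 CPM in ko/ko glia. The 2 types do not overlap, and the log2 difference was 1.38 (SE 0.15, adjusted p = 2.9e-13). Against interneurons (211 ± 36.2 CPM) the direction depended on the scaling. With TMM factors photoreceptors were the higher by 0.26 (adjusted p = 0.026), and with library sizes alone the difference was -0.08 (adjusted p = 0.54).

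Gabarapl2, also called GATE-16, was at 149, 144 and 138 CPM in wt/wt interneurons and 204, 110.1 and 133 CPM in ko/ko. Interneurons (146 ± 31.1 CPM) were the highest type in 6 of 6 retinas. The log2 difference from glia (97.6 ± 30.9 CPM) was 0.44 (SE 0.16, adjusted p = 0.014), lost in 5 of 17 alternatives. Map1lc3b, which encodes LC3B, was at 138 ± 19.8 CPM in photoreceptors, 178 ± 35.9 in interneurons, 182 ± 45.3 in glia, 205 ± 44.3 in mesenchymal cells and 163 ± 149 in RPE cells. It did not pass the test (adjusted p = 0.061). Among annotated pseudogenes, 5 matched its 3′ end over 280 to 338 bases at 94.0% to 99.7% identity and drew 268 UMIs, 6.31% of its own 4249. Another 11 shared 111 to 112 bases with it and drew 731 UMIs, or 17.2%. By retina the UMIs of all 16, the short matches included, came to 15.4% to 34.5% of its own, least in the 2 batch 1 retinas. Whether UMIs of the 11 short matches belong to Map1lc3b was not tested. A same-strand gene also overlaps it, so its level is uncertain.

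**Figure D3:**
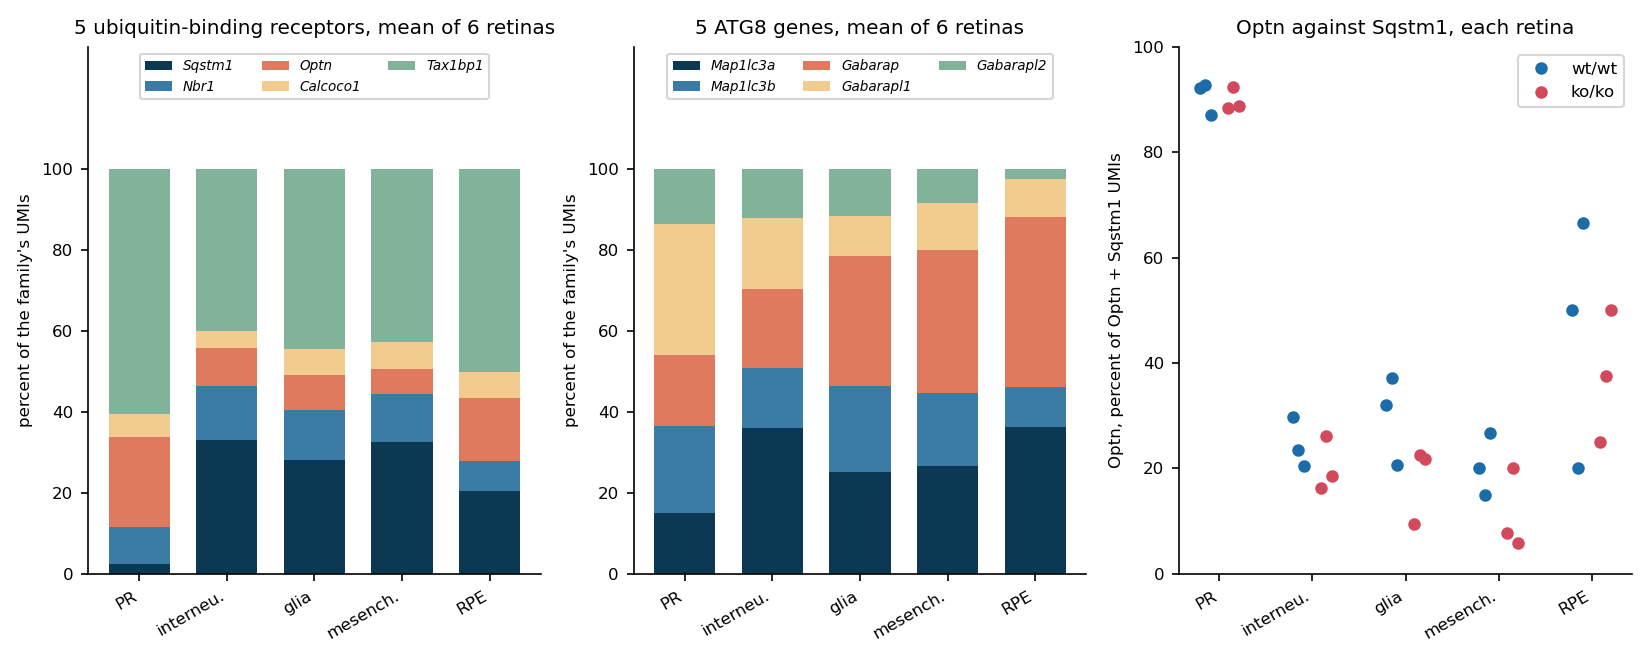
Shares of UMIs by cell type (stacked bars, mean of 6 retinas), within 5 receptors and within the 5 ATG8 genes. The 5 receptors are those other than Bnip3 and Bnip3l, titled ubiquitin-binding in the panel although Calcoco1 is among them. Points give Optn as a percent of Optn plus Sqstm1 UMIs in each retina (wt/wt blue and ko/ko red). Sqstm1 takes 2.41% of receptor UMIs in photoreceptors and 33.1% in interneurons, Gabarapl1 takes 32.3% of ATG8 UMIs in photoreceptors and 10.1% in glia, and the Optn points of photoreceptors are all at or above 87.2%.

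As shares of the family, Map1lc3a made 15.1% ± 2.07 (SD, n = 6) of ATG8 UMIs in photoreceptors and 36.0% ± 2.73 in interneurons. Gabarapl1 made 32.3% ± 2.17 in photoreceptors, 17.5% ± 2.20 in interneurons and 10.1% ± 2.31 in glia. The 2 LC3 genes together took 34.2% to 38.9% in photoreceptors and 45.7% to 55.6% in interneurons, ranges that do not overlap. Among the 5 receptors other than Bnip3 and Bnip3l, Sqstm1 made 2.41% ± 0.809 in photoreceptors, 33.1% ± 4.81 in interneurons and 28.2% ± 5.41 in glia. Tax1bp1 made 60.5% ± 3.59, 40.1% ± 5.39 and 44.6% ± 6.78 of the same totals.

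In the group of membrane supply, Wipi1 stood out in glia. WIPI1 binds phosphatidylinositol phosphate on the phagophore. Its glial values were 252, 228 and 300.1 CPM in wt/wt and 268, 289 and 348 CPM in ko/ko, against 22.6 to 26.9 CPM in photoreceptors and 8.14 to 31.3 CPM in interneurons, with no overlap. The log2 difference from RPE cells, the next type at 1 to 4 UMIs per retina, was 1.84 (SE 0.33, adjusted p = 1.8e-06), and photoreceptors were below glia by a log2 difference of -3.38 (SE 0.13, adjusted p = 5.3e-36). Its relatives in the same fit, Wipi2 and Wdr45b, had no such step. Wipi2 was at 54.4 ± 4.10 CPM in photoreceptors and 49.0 ± 7.75 in glia (adjusted p = 0.24), and Wdr45b at 60.9 CPM in mesenchymal cells and 41.6 in glia (adjusted p = 0.18). Wdr45 was tested only without RPE cells (edgeR). Against glia it was lower in photoreceptors (log2 -0.63, adjusted p = 0.018) and in interneurons (-0.91, adjusted p = 0.0035). Wdr45b in that fit was also lower in photoreceptors than in glia (-0.56, adjusted p = 0.044).

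Vmp1, a lipid scramblase of the endoplasmic reticulum, was at 86.3 ± 18.9 CPM in photoreceptors and 69.6 ± 17.8 in glia. The log2 difference was 0.47 (SE 0.16, adjusted p = 0.0081), lost in 5 of 17 alternatives. A processed pseudogene with 17283 UMIs lies within Vmp1 on the same strand, so reads may be shared. Atg9a, the scramblase of seed vesicles, was at 48.7 CPM in glia and 48.5 CPM in photoreceptors (adjusted p = 0.77), and it too overlaps a transcript on the same strand.

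In the conjugation systems Atg4c, a protease that processes ATG8 proteins, was at 73.8, 77.7 and 66.8 CPM in wt/wt photoreceptors and 77.1, 75.2 and 90.1 CPM in ko/ko. Interneurons had 35.6 to 52.9 CPM, with no overlap, and the log2 difference was 1.15 (SE 0.14, adjusted p = 1.5e-11). Glia (35.4 CPM) and mesenchymal cells (23.3 CPM) followed without steps beyond the spread. Its homologue Atg4b was at 60.3 CPM in mesenchymal cells and 53.7 in photoreceptors (adjusted p = 0.9). Atg12, the ubiquitin-like protein joined to ATG5, was at 114 CPM in RPE cells and 75.6 ± 19.0 in photoreceptors (adjusted p = 0.51). Photoreceptors exceeded interneurons in 6 of 6 retinas, with a log2 difference of 0.87 (SE 0.13, adjusted p = 1.8e-08). Atg3, the E2-like enzyme for ATG8, was at 56.9 to 89.5 CPM over the 5 types and did not pass the test (adjusted p = 0.62).

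Of the initiation genes 2 of 5 were tested in this fit and of the PI3-kinase genes 2 of 7, and none of these had a step between the highest type and the next that passed. Rb1cc1, the scaffold FIP200, was at 81.4 CPM in interneurons, 74.5 in photoreceptors, 54.3 in glia and 13.6 in RPE cells. The log2 difference of photoreceptors from glia was 0.71 (SE 0.17, adjusted p = 2.3e-04), and against interneurons the sign turned with the scaling (0.14 with TMM factors and -0.20 with library sizes). Atg101, a partner of ATG13, was at 59.7 CPM in mesenchymal cells and 55.0 CPM in photoreceptors (log2 -0.05, adjusted p = 0.9). Becn1, the Beclin 1 subunit, was at 66.5 CPM in mesenchymal cells, 57.1 in interneurons, 51.6 in glia and 33.2 in photoreceptors. Photoreceptors were below interneurons, with a log2 difference of -0.47 (SE 0.15, adjusted p = 0.0038). Atg14, which directs the kinase to autophagy, was at 28.6 to 48.7 CPM over the types (adjusted p = 0.77).

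Counted over the 25 members tested, photoreceptors were above interneurons for 12 and below for 7, where 32.9% and 33.1% of all genes were. Against glia the counts were 8 above and 7 below, with 37% and 32% of all genes, and for interneurons against glia 5 above and 6 below, with 31.6% and 27.6%. These splits depend on how libraries are scaled. With library sizes alone the first became 7 above and 10 below, the second 6 and 9, and the third 5 and 3, while the median log2 difference of all genes between photoreceptors and interneurons moved from 0.01 to -0.32. Under TMM factors, RLE factors and library sizes alike, 7 members were above in photoreceptors against interneurons (Optn, Tax1bp1, Calcoco1, Atg4c, Atg12, Wipi1 and Vmp1) and 7 below (Sqstm1, Bnip3, Map1lc3a, Bnip3l, Gabarap, Becn1 and Gabarapl2).

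Of the 18 members outside that test, 10 passed the filter when RPE cells were left out, and 6 of these differed between the other 4 types, where 88.2% of all genes tested did. Uvrag, a regulator of the PI3-kinase, was at 42.5 CPM in photoreceptors and 13.5 in glia, a log2 difference of 1.62 (adjusted p = 3.0e-06). For Atg16l1, the adaptor that places ATG8 conjugation on the membrane, it was 1.21 (adjusted p = 3.7e-05), and for the protease gene Atg4d 1.03 (adjusted p = 5.0e-05). Atg13, Ulk1 and Wdr45 also differed among the 4 types (adjusted p 0.0026, 0.017 and 0.0098), and Ulk2, Pik3c3, Atg5 and Atg10 did not pass. The last 8, Ambra1, Atg2a, Atg2b, Atg4a, Atg7, Atg16l2, Pik3r4 and Rubcn, had means of 3.59 to 26.3 CPM outside RPE cells. In RPE cells 8 members had no UMI among 151269 (Ulk1, Atg13, Atg2a, Atg2b, Atg10, Atg16l1, Atg16l2 and Ambra1), which allows up to 19.8 CPM for counting error alone, and 25 more had fewer than 10 UMIs.

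The second question was whether loss of Dram2 moved the machinery. In photoreceptors all 43 members were tested, and none passed: edgeR, limma-voom and DESeq2 each called 0 at an adjusted p of 0.05 and 0 at an unadjusted one. Of all 13053 genes tested, 0% were called, and 109 had an unadjusted p under 0.05 by edgeR. That is fewer than evenly spread p-values would give, so 0 members at that threshold is near the share of all genes. The counts given below for interneurons, glia and all cells were low in the same way. The log2 differences of ko/ko from wt/wt ran from -0.86 to 0.32, 20 above and 23 below 0, with a median of -0.01 where that of all genes was also -0.01. The 95% interval lay within 1 log2 unit of no difference for 40 of the 43 genes, with a median half-width of 0.54. Differences within these intervals were not detectable here, and a p above the threshold does not show equal levels. The fit held genotype without batch, which differed for 5.49% of all genes in photoreceptors by edgeR. The part of batch in the width of these intervals was not tested.

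**Figure D4:**
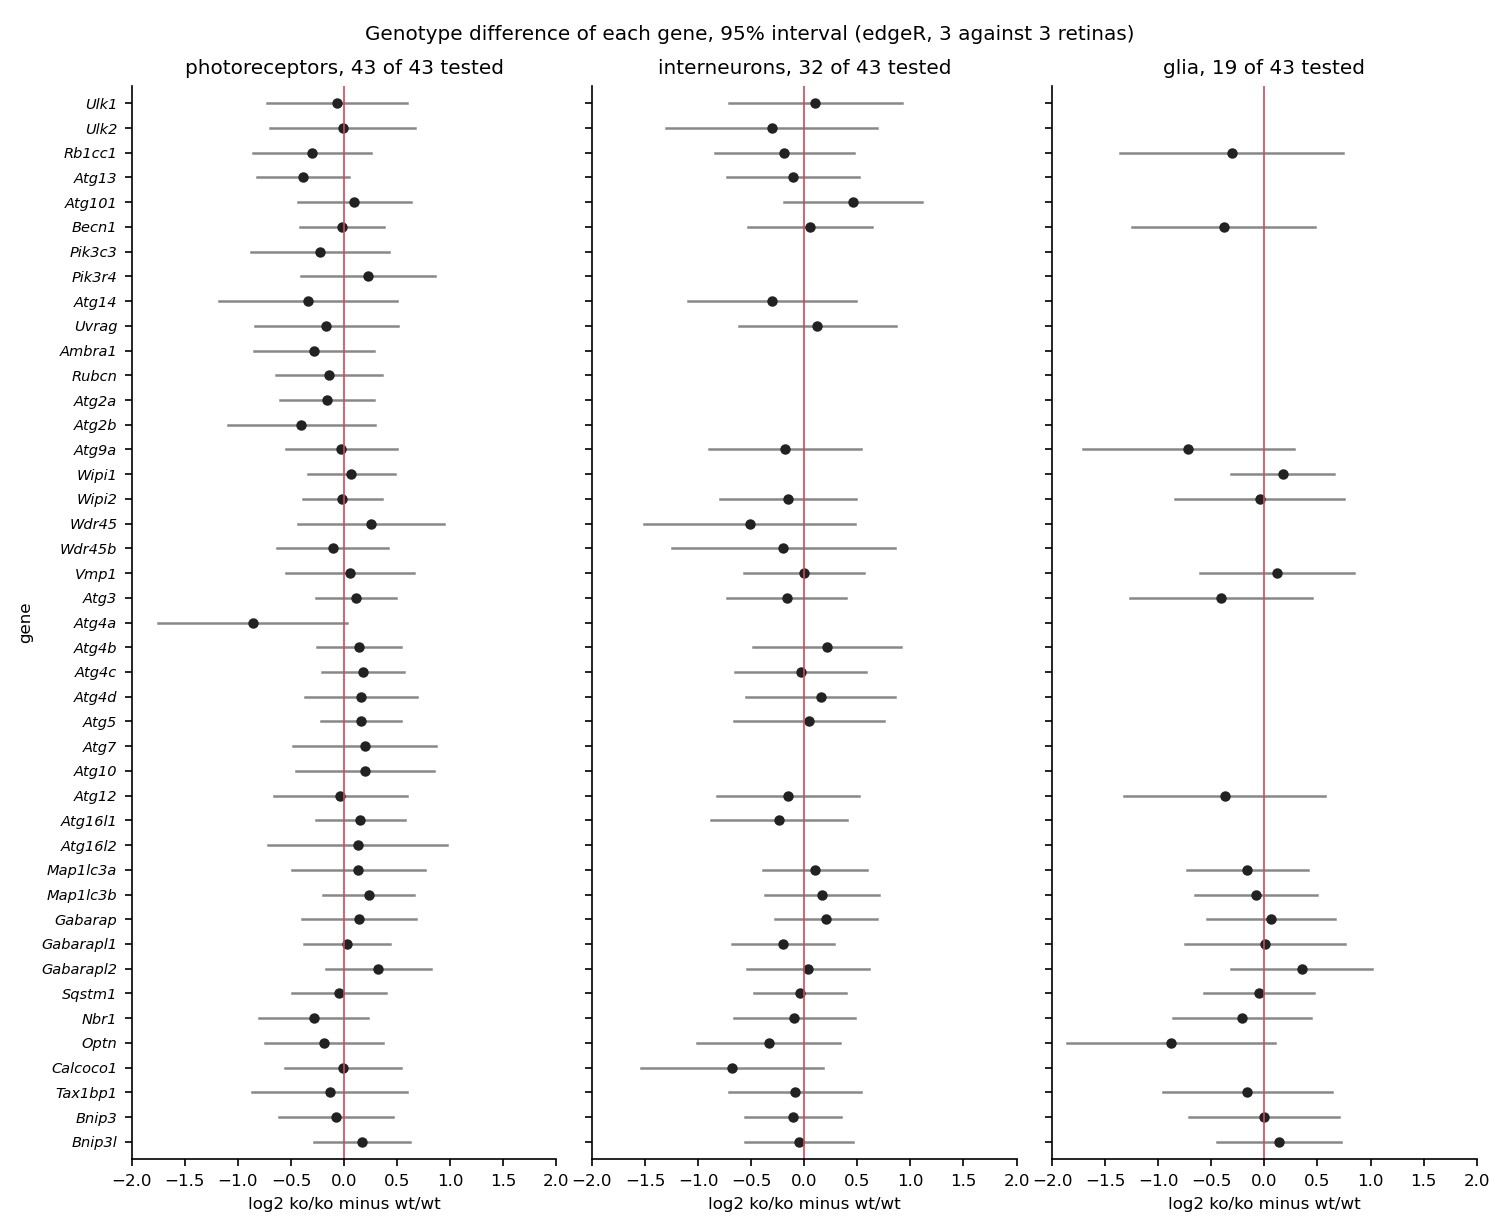
Log2 difference of ko/ko from wt/wt for each member (points) with its 95% interval (lines) in photoreceptors, interneurons and glia, from edgeR on 3 against 3 retinas, with genes that did not pass the filter left blank. All intervals cross 0, for 43 genes tested in photoreceptors, 32 in interneurons and 19 in glia.

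The largest photoreceptor difference was that of Atg4a, the protease gene with the fewest UMIs of all members there. It had 16, 24 and 14 UMIs in wt/wt photoreceptors and 8, 9 and 16 in ko/ko, or 5.18, 7.29 and 3.91 against 2.77, 2.51 and 3.42 CPM. The genotypes do not overlap (log2 -0.86, SE 0.39, adjusted p = 1.00 by edgeR). Atg13, which holds the ULK1 complex together, did not overlap either. It was at 38.9, 31.3 and 29.1 CPM in wt/wt and 23.9, 24.2 and 26.1 CPM in ko/ko (log2 -0.39, SE 0.19, adjusted p = 1.00 by edgeR). These were the 2 of 43 members without overlap, where 5.55% of all genes tested had none. Atg2b, a lipid transfer protein, was at 14.6, 10.3 and 9.22 CPM in wt/wt and 7.26, 10.9 and 7.06 CPM in ko/ko, a log2 difference of -0.40 (SE 0.30). On the other side, Map1lc3b was at 119, 115 and 152 CPM in wt/wt and 166, 134 and 145 CPM in ko/ko, with 0.23 (SE 0.19). The difference of Atg4c, whose values stand with the cell types, was 0.18 (SE 0.17), and that of Gabarapl2 was 0.32 (SE 0.21). Gabarapl2 was at 72.9, 76.2 and 89.4 CPM in wt/wt and 128, 84.7 and 81.7 CPM in ko/ko. Its difference was 0.12 without ko/ko replicate 1. Leaving out 1 retina at a time gave -1.05 to -0.59 for Atg4a, -0.46 to -0.26 for Atg13, -0.63 to -0.20 for Atg2b, 0.16 to 0.38 for Map1lc3b, 0.080 to 0.24 for Atg4c and 0.12 to 0.43 for Gabarapl2.

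In interneurons 32 members were tested and 0 were called, as were 0% of 7698 genes, with 0 at an unadjusted 0.05 by edgeR and DESeq2 and 1 by limma-voom. Of all genes tested there, 86 had an unadjusted p under 0.05 by edgeR. The median difference was -0.09, against -0.01 for all genes, with 21 of 32 below 0. Calcoco1 was at 23.7, 21.6 and 35.5 CPM in wt/wt and 12.2, 23.7 and 16 CPM in ko/ko, with overlap (log2 -0.68, SE 0.39, adjusted p = 1.00 by edgeR). Wdr45, which binds phosphoinositides, was at 23.7, 38.5 and 24.9 CPM in wt/wt and 32.6, 8.63 and 21.3 CPM in ko/ko, a log2 difference of -0.52 (SE 0.45), and Optn had -0.33 (SE 0.30). On the other side, Atg101 was at 45.1, 43.3 and 37.0 CPM in wt/wt and 77.3, 43.2 and 54.1 CPM in ko/ko. Its log2 difference was 0.46 (SE 0.29), that of Gabarap 0.21 (SE 0.22) and that of Map1lc3b 0.17 (SE 0.24). With 1 retina left out, the values ran over -0.78 to -0.53 for Calcoco1, -0.74 to -0.19 for Wdr45, -0.55 to -0.16 for Optn, 0.30 to 0.61 for Atg101, 0.097 to 0.32 for Gabarap and -0.012 to 0.30 for Map1lc3b, whose sign turned without ko/ko replicate 3. The genotypes did not overlap for 1 of 32 members, Atg16l1, against 6.21% of all genes. The 6 amacrine markers in interneurons summed to 306 to 1405 CPM in wt/wt and 93.6 to 1658 CPM in ko/ko. The 7 bipolar markers summed to 3882 to 7173 CPM in wt/wt and 4944 to 7870 CPM in ko/ko. The part of this cell mix in the genotype values was not tested.

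In glia 19 members were tested and 0 were called, as were 0% of 4130 genes, with 0 at an unadjusted 0.05 by all 3 tools. An unadjusted p under 0.05 by edgeR was found for 51 of all genes tested there. Optn, whose glial values in each retina are given with the cell types, had the largest difference. The ranges overlap (log2 -0.88, SE 0.45, adjusted p = 1.00 by edgeR), and the 95% interval was -1.86 to 0.10. It was -0.56 without ko/ko replicate 1, where Optn had 3 glial UMIs. Atg9a had 18, 8 and 25 UMIs in wt/wt glia and 3, 9 and 13 in ko/ko, too few for a firm value. It (-0.72, SE 0.46) and Atg3 (-0.41, SE 0.40) followed, and Gabarapl2 (0.35, SE 0.31), Wipi1 (0.17, SE 0.22) and Bnip3l (0.14, SE 0.27) were on the other side. Where the gene still passed the filter, leaving out 1 retina gave -1.22 to -0.56 for Optn, -1.13 to -0.46 for Atg9a, -1.17 to -0.17 for Atg3, 0.14 to 0.50 for Gabarapl2, 0.095 to 0.28 for Wipi1 and 0.0092 to 0.28 for Bnip3l. The genotypes overlapped for all 19 members, against 5.88% of all genes without overlap.

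Mesenchymal cells let 7 members through the filter and RPE cells 2, and 0 were called in either by the 3 tools, with 0 at an unadjusted 0.05. Of the 1717 and 308 genes tested there, 0% and 0% were called by edgeR, and 150 and 11 had an unadjusted p under 0.05. The authors' own test on such sums, with voom-limma, lists significant genes in interneurons, mesenchymal cells and RPE cells. No member is among them, and why their counts differ from those here was not tested. In mesenchymal cells Gabarapl1 had 0.39 (SE 0.51), Tax1bp1 0.35 (SE 0.38) and Sqstm1 0.31 (SE 0.34), while Bnip3l had -0.21 (SE 0.40) and Map1lc3a -0.01 (SE 0.32). Without single retinas these ran over -0.019 to 1.26, 0.045 to 0.61, 0.12 to 0.43, -0.45 to -0.038 and -0.24 to 0.13 in that order. The 9 microglia markers summed to 18670 to 25800 CPM in wt/wt and 5213 to 16600 CPM in ko/ko of those cells, with no overlap and none at 0, and their part in these values was not tested. In RPE cells Gabarap had 0.26 (SE 0.30) and Map1lc3a -0.10 (SE 0.47), with 0.025 to 0.48 and -0.68 to 0.28 when 1 retina was left out. Nbr1 had 2, 4 and 1 UMIs in wt/wt RPE cells and 0 in each ko/ko sum, too few to test.

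Over all cells of a retina 43 members were tested, and 0 were called (0% of 15330 genes), with 0 at an unadjusted 0.05 by all 3 tools. Of all genes in that fit, 101 had an unadjusted p under 0.05 by edgeR. The members of smallest p were Atg13 (-0.34, SE 0.18), Atg2b (-0.50, SE 0.28) and Atg4a (-0.71, SE 0.41) below 0, and Gabarapl2 (0.29, SE 0.21), Atg5 (0.22, SE 0.17) and Map1lc3b (0.22, SE 0.19) above it. Leaving out 1 retina gave -0.40 to -0.23, -0.68 to -0.32, -1.08 to -0.51, 0.076 to 0.41, 0.19 to 0.28 and 0.13 to 0.38 in the same order. In such whole-retina sums fewer cells of a type and less RNA per cell cannot be told apart.

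Whether the genotype difference changed between types was tested with an interaction term. It called 0 of 25 members, against 0.0636% of all genes. An unadjusted p under 0.05 by edgeR was found for 1 member, Calcoco1 (adjusted p = 1.00), and for 253 of all 6290 genes. The summed level of the 43 genes was 0.285% ± 0.0231 of UMIs in photoreceptors of wt/wt retinas and 0.276% ± 0.0203 in those of ko/ko, 0.332% ± 0.0147 and 0.320% ± 0.0231 in interneurons, and 0.304% ± 0.0368 and 0.304% ± 0.0380 in glia (SD, 3 retinas each). Optn took 87.2% to 92.8% of Optn and Sqstm1 UMIs in wt/wt photoreceptors and 88.4% to 92.5% in ko/ko. In glia it took 20.7% to 37.2% in wt/wt and 9.38% to 22.5% in ko/ko. The genotypes overlap in both types. Over all families and types 65 such shares were formed, counting a pair once, and the genotypes did not overlap for 5 of them (7.69%). These were not tested, and for CPM in the 3 largest types 5.55% to 6.21% of all genes had no overlap. Map1lc3a took 25.7% to 27% of ATG8 UMIs in wt/wt glia and 23.1% to 24.0% in ko/ko. Optn took 9.12% to 13.0% of the UMIs of the 5 receptors other than Bnip3 and Bnip3l in wt/wt glia and 3.45% to 8.43% in ko/ko. The others rest on few UMIs. They were Bnip3 in mesenchymal cells (18.8% to 27.8% of the pair in wt/wt and 28.6% to 57.1% in ko/ko, on 12 to 21 UMIs per retina), and Sqstm1 and Nbr1 among the receptors in RPE cells, on 4 to 28 UMIs.

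Genes around the core were counted in 4 lists, of 14 upstream regulators, 14 fusion genes, 16 genes of mitophagy and other selective routes and 11 further regulators. Without Dram2, the filter let 14, 14, 14 and 9 of them through in photoreceptors, 7, 9, 12 and 2 in interneurons and 14, 14, 15 and 9 in all cells. Between genotypes 0 were called by edgeR in any of these. Of the listed genes 1 had an unadjusted p under 0.05 (adjusted p = 1.00 by edgeR), where 101 of all 15330 genes in all cells did. This was Vps39, a subunit of the HOPS complex that tethers autophagosomes to lysosomes, in all cells, at -0.55 (SE 0.21), with -0.51 (SE 0.23) in photoreceptors and -0.81 (SE 0.39) in interneurons. In photoreceptors Rptor, a subunit of mTORC1, had -0.54 (SE 0.31) and its kinase gene Mtor -0.23 (SE 0.18). Vps18, another HOPS gene, had 0.29 (SE 0.18). The smallest p of the selective list there were those of Wdfy3, an aggregate scaffold (-0.40, SE 0.26), and Tex264, a receptor for the endoplasmic reticulum (0.28, SE 0.18). Among the further regulators they were those of Wdr41, a partner of C9ORF72 (0.32, SE 0.21), and Trp53inp1, which binds ATG8 proteins (-0.31, SE 0.25).

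Between cell types 4 of 4 upstream genes that passed the filter differed, 5 of 5 fusion genes, 7 of 9 selective genes and 2 of 2 further regulators, where 94.3% of all genes tested did. The SNARE gene Vamp8 was at 1118 CPM in RPE cells and 261 in mesenchymal cells (log2 1.86, SE 0.20, adjusted p = 5.4e-13). Rtn3, a receptor for tubules of the endoplasmic reticulum, was at 1101 CPM in glia and 381 in RPE cells (log2 1.74, SE 0.23, adjusted p = 6.9e-10), and Fundc1, a mitochondrial receptor, at 151 in glia and 83.9 in interneurons (log2 1.00, SE 0.16, adjusted p = 7.8e-08). Tecpr1, a tethering factor, was at 128 CPM in interneurons and 59.1 in photoreceptors (log2 0.80, SE 0.11, adjusted p = 3.7e-09). Foxo1, a transcription factor acting on autophagy genes, was at 90.2 CPM in mesenchymal cells, 81.2 in glia and 15.4 in photoreceptors, and Rheb, the activator of mTORC1, at 226 in interneurons and 124 in photoreceptors. Among the further regulators, Trp53inp2 was at 66.5 CPM in photoreceptors and 45.2 in interneurons (log2 0.79, SE 0.14, adjusted p = 1.9e-06). Bcl2, which restrains Beclin 1, was at 93.7 CPM in photoreceptors and 55.4 in glia (log2 0.95, SE 0.18, adjusted p = 3.6e-06).

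The batches were compared over all cells, with genotype as a covariate, and 5 of 43 members had an adjusted p under 0.05 by edgeR between the 2 batch 1 and the 4 batch 2 retinas, against 15.2% of all genes. Map1lc3a (0.90, SE 0.13), Sqstm1 (0.57, SE 0.14) and Gabarap (0.53, SE 0.15) were higher in batch 1 on the log2 scale, and Tax1bp1 (-0.83, SE 0.23) and Atg12 (-0.70, SE 0.19) lower. The count moved when 1 retina was left out. It was 1 without wt/wt replicate 1, 0 without wt/wt replicate 2, 0 without wt/wt replicate 3, 17 without ko/ko replicate 1, 1 without ko/ko replicate 2 and 0 without ko/ko replicate 3. Without either replicate 3 batch 1 is a lone retina, assumed to vary like those of batch 2. In photoreceptors alone 0 of 43 were called by edgeR, against 5.49% of all genes, with 10 at an unadjusted 0.05, and the values were 0.64 (SE 0.15) for Map1lc3a, -0.66 (SE 0.23) for Tax1bp1 and 0.20 (SE 0.17) for Sqstm1. Batch 1 retinas had 536 and 610 interneurons and batch 2 retinas 160 to 276. The mitochondrial share of UMIs was 2.75% and 3.22% in batch 1 and 0.405% to 0.72% in batch 2, and the median cell had 550 and 609 UMIs against 406 to 444. The part of cell mix, mitochondrial share and depth in the batch differences was not tested.

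Within photoreceptors the spread of 3 receptors between retinas ran beside that of Malat1, a nuclear RNA. In the order wt/wt 1 to 3 and ko/ko 1 to 3, Malat1 took 17.7%, 17.1%, 8.80%, 12.0%, 14.9% and 10.96% of photoreceptor UMIs. Tax1bp1 in the same order was at 734, 761, 374, 472, 736 and 459 CPM and Nbr1 at 111, 102, 76.8, 66.0, 98.4 and 68.7 CPM. The 3 retinas with most Malat1, wt/wt 1 and 2 and ko/ko 2, are those with most of Tax1bp1, Nbr1 and Optn, and those with least Map1lc3a. Over all counts too these 3 lay closest together (chi-square per degree of freedom 1.67 to 3.86). How many other genes share this order was not counted. In glia the same 3 retinas had most Malat1 (16.7%, 19.2%, 5.48%, 10.8%, 18.6% and 6.55% in that order) and most Optn and Tax1bp1. Glial Nbr1 did not put these 3 retinas first, at 95.5, 87.0, 90.5, 80.4, 89.4 and 76.1 CPM in that order. All 3 are batch 2 retinas, and the part of nuclear RNA in them was not tested.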

How the data were processed

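The authors aligned exonic reads of 6 retinas to the mouse genome with Cell Ranger 3.1.0 (build GRCm38, per the submitters' processing notes) and deposited 1 table of raw UMI counts per gene and cell. They integrated the cells over batch with CCA in Seurat and clustered them by the Louvain method, and their deposited table gives each cell's type, genotype, replicate and batch. The table holds no cell barcodes, so barcodes shared between libraries could not be counted, and 0 of its columns were left unused. Of 52636 gene IDs, 52489 were named with GENCODE M21.

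UMIs were summed per retina and type, cells without a type entering only the sum over all cells. No doublet caller was run here. Sums were tested with edgeR 4.0.16 (filterByExpr, TMM factors, quasi-likelihood test) in R 4.3.3. Genotype was tested within each type on 3 against 3 retinas, without batch in the fit. Cell types were tested over all sums with retina as a block. Benjamini-Hochberg adjustment ran over all genes tested, separately for the steps between a gene's highest types and for pairs of types. An exact permutation test of 3 against 3 retinas cannot go below p = 0.1, and none was run. CPM is per 1000000 UMIs of the same sum, and all deposited genes were counted in it.

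Alternatives were limma-voom (limma 3.58.1), DESeq2 1.42.0, RLE factors or library sizes, no filter, a replicate block, a stricter cell set (500 UMIs or more, mitochondrial share up to 10%), leaving out the 5% of cells with most UMIs, and leaving out each retina. The subsets of batch 2 retinas only and of types without RPE cells were chosen after seeing the data. Copies of members were sought with BLAST 2.17.0 (at least 90% identity over 100 bases of the last 600), and an alternative added all matches to their member, short ones included. The limit for 0 counts is 3 counts, and intervals are 95%. The limit covers counting error only. The scripts were tested on simulated data.

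The members and lists were chosen with earlier results of these data known. Given with values were the ATG8 genes, the receptors, up to 3 members of smallest p in each direction between genotypes, and the member with the largest step between types in each role group. Further members were added to account for all 43. For the other pathway genes the 2 of smallest p per list were named.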

Additional observations from a re-analysis of the deposited data

How the results depend on the processing

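Between genotypes 0 members were called in any cell type, in all cells or in the interaction under each alternative run for that comparison. With a replicate block, or batch as a covariate, 0 were called too. For numbers 1 to 3, deviations of same-numbered retinas had r = -0.07, 0.54 and 0.52 in photoreceptors, 0.10, 0.34 and 0.58 in interneurons, -0.07, 0.32 and 0.50 in glia and 0.07, 0.53 and 0.65 in all cells. In all 4, wt/wt replicate 1 followed ko/ko replicate 2 more closely than its own number (r = 0.50, 0.33, 0.35 and 0.48). Both replicates 3 are from batch 1, while numbers 1 and 2 of both genotypes are from batch 2, so the numbers were not taken as pairs. Members differing between cell types numbered 35 of 43 without a filter on low counts, where 47.9% of all genes differed, and 14 of 17 tested to 26 of 30 tested when 1 retina was left out. Members called between batches numbered 1 in the stricter cell set and 0 in photoreceptors. They numbered 0 to 17 when 1 batch 2 retina was left out. The stricter set was filtered on UMIs (at least 500) and on mitochondrial share together, and the part of each filter was not tested. Without Malat1 and mitochondrial UMIs the summed level was 0.331% of the remaining UMIs in photoreceptors, 0.365% in interneurons and 0.352% in glia. The smaller total itself raises the share, and the ranges of photoreceptors and interneurons then overlapped. The direction turned for Gabarapl1 between interneurons and photoreceptors with library sizes (0.076) and for Gabarap between genotypes in RPE cells with batch 2 retinas only (-0.062), and the cause was not tested. Leaving out 1 retina turned the genotype difference of Map1lc3b in interneurons (-0.012 to 0.30), Gabarapl1 in mesenchymal cells (-0.019 to 1.26), Map1lc3a in mesenchymal cells (-0.24 to 0.13, with values 0.13, 0.07 and 0.05 above 0) and Map1lc3a in RPE cells (-0.68 to 0.28, with 0.28, 0.25 and 0.11 above 0). Depth limits RPE cells most, with 439 member UMIs in all.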

Other observations

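The 629 cells without a deposited type held 379054 UMIs over the 6 retinas, of which 945 fell on the 43 members, or 0.249%. By retina the share was 0.225%, 0.262% and 0.250% in wt/wt and 0.268%, 0.262% and 0.230% in ko/ko, and these cells entered no comparison of types.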
